A study of Mus musculus with 6 samples.

Results

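The eicosanoid synthesis enzymes were followed in RNA-seq data from gonadal white adipose tissue (gWAT), a visceral fat pad. The members are 10 genes fixed by name, *Ptgs1*, *Ptgs2*, *Ptges*, *Ptgis*, *Ptgds*, *Hpgds*, *Tbxas1*, *Alox5*, *Alox5ap* and *Ltc4s*, and all 10 were found among the 19790 genes of the deposited count table through their NCBI gene identifiers. The tissue came from wild-type C57BL/6 mice, male by the methods of the study, of which 3 ate normal chow (NCD) and 3 a diet high in fat (HFD), each over 8 weeks. The sample labels place the start of the diets at 6 weeks of age and the methods at 8 weeks. Whole tissue was sequenced, so that a lower level can come from fewer cells of a type or from less RNA per cell, which cannot be told apart here.

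Eicosanoids are signalling lipids made from arachidonic acid that phospholipases release from membranes. The cyclooxygenases, encoded by *Ptgs1* and *Ptgs2*, turn arachidonic acid into prostaglandin H2, which terminal synthases convert to prostaglandin E2 (*Ptges*), prostacyclin (*Ptgis*), prostaglandin D2 (*Ptgds* and *Hpgds*) or thromboxane A2 (*Tbxas1*). In the other branch, 5-lipoxygenase (*Alox5*), presented with its substrate by the activating protein FLAP (*Alox5ap*), makes leukotriene A4, to which leukotriene C4 synthase (*Ltc4s*) adds glutathione. In adipose tissue prostaglandin E2 is known for restraining lipolysis through the receptor EP3, encoded by *Ptger3*, and macrophages and other leukocytes are known sources of thromboxane, prostaglandin D2 and leukotrienes.

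The libraries held between 49575113 and 66360046 counts. Secretory genes of the seminal vesicle, a gland next to the fat pad, 11 in number, took 58.6%, 11.2% and 2.30% of the counts of NCD replicates 1, 2 and 3, while they had 6, 8 and 2 counts in the HFD libraries. The adipocyte list (*Adipoq*, *Plin1*, *Lep*, *Fabp4*, *Cidec*, *Lipe* and *Pnpla2*) was detected in every library, but its summed level was 3633, 14325 and 19581 CPM on NCD and 15191, 15164 and 11651 on HFD, so that NCD replicate 1 stood apart. Results are therefore given with and without that library. Levels are TMM-scaled CPM, that is counts relative to the library total after correction by edgeR's TMM factors, and the values of 3 mice always follow the order of replicates 1, 2 and 3. The diets were compared with the quasi-likelihood test of edgeR in the 15241 genes that had enough counts, at an adjusted p (Benjamini-Hochberg) under 0.05.

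By this test 4 of the 10 enzymes differed between the diets. *Hpgds*, *Tbxas1* and *Alox5ap* rose, by 7.69-fold, 7.29-fold and 5.17-fold, and *Ptges* fell, being 3.29-fold higher on NCD. Of all genes tested, 7.47% passed, with 5.58% higher and 1.9% lower on HFD. The 6 members that did not pass were *Ptgs1*, *Ptgs2*, *Ptgis* and *Ptgds*, whose 95% intervals lay on a single side of 0, and *Alox5* and *Ltc4s*, whose intervals spanned 0. All 10 members passed the filter on low counts. Their median log2 fold change was 1.59, beside -0.08 over all genes tested, and in 7 of the 10 the diets had no overlap, as in 39.2% of all genes tested.

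**Figure D1:**
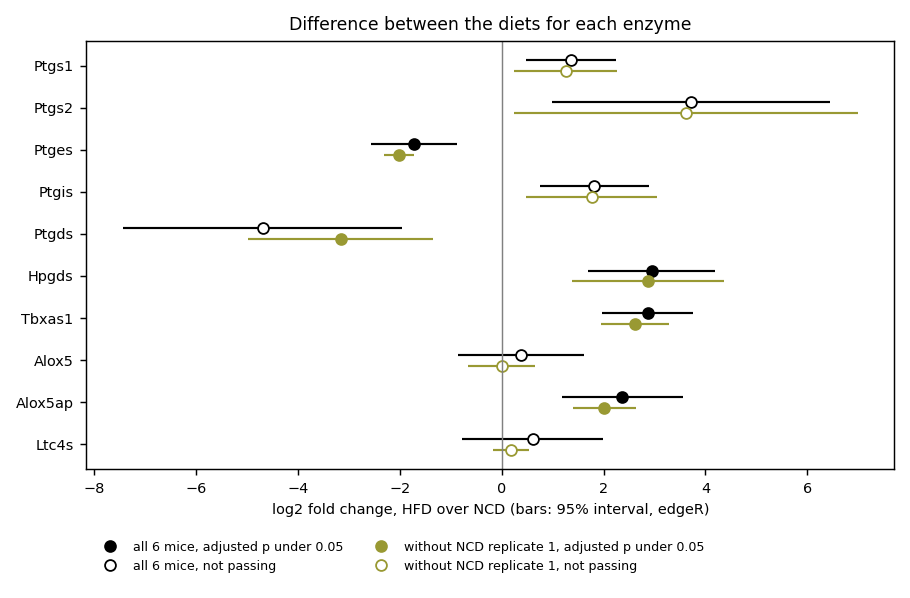
Log2 fold change (HFD over NCD, horizontal axis) of the 10 enzymes with 95% intervals from edgeR, for all 6 mice (black) and without NCD replicate 1 (olive); filled points passed an adjusted p under 0.05. *Hpgds*, *Tbxas1* and *Alox5ap* lie to the right of 0 and *Ptges* to the left with both sets of mice, and *Ptgds* is filled only without NCD replicate 1.

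Without NCD replicate 1 the same 4 genes passed and *Ptgds* passed as well, making 5 of 10, where 20.9% of all genes tested passed, 10.7% higher and 10.1% lower. Leaving out any 1 of the 5 remaining mice, none of the 10 passed in edgeR, although 7 or 8 of them then had an unadjusted p under 0.05. Over all genes, these 5 fits tested from 15433 to 15764. Of those, from 2 to 7 passed, and from 2988 to 4345 had an unadjusted p under 0.05. DESeq2 on all 6 mice called 8 of the 10 members, with 23% of all genes called. The signs of all 10 log2 fold changes were the same under all 12 alternatives. The smallest two-sided p that permuting 3 and 3 mice can reach is 0.1.

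**Figure D2:**
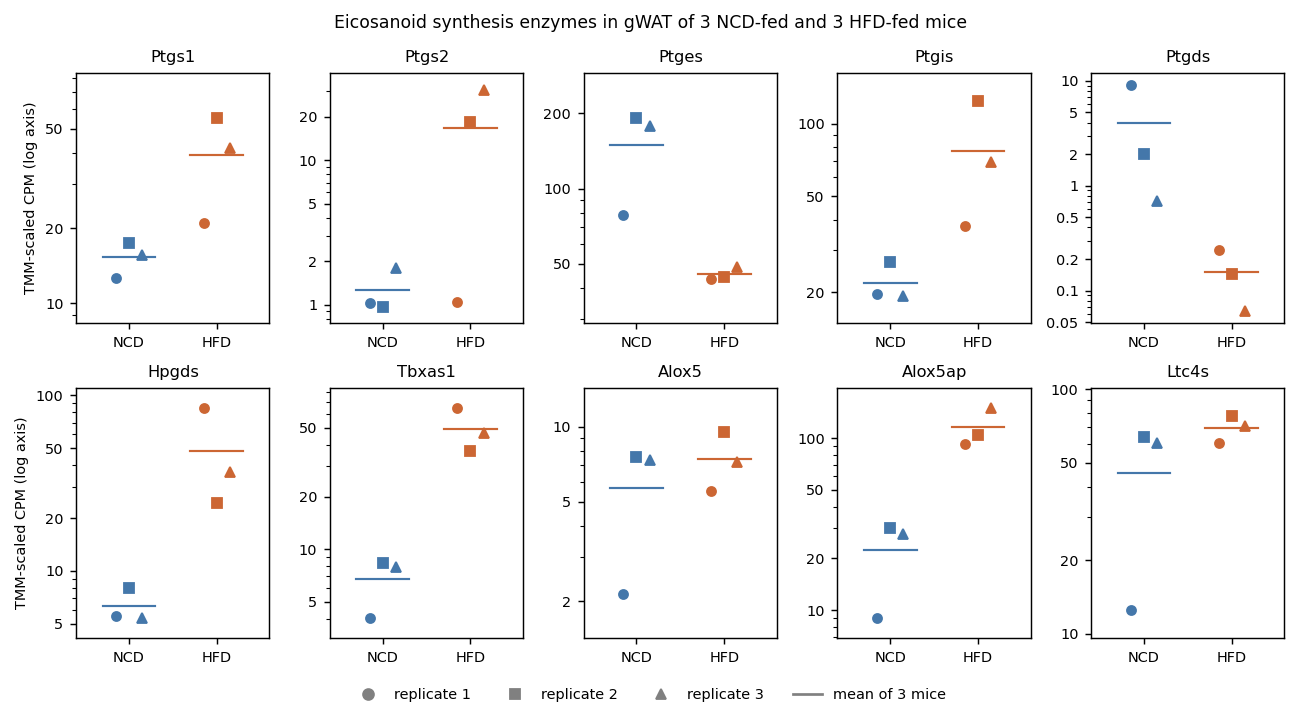
TMM-scaled CPM (log axis, each panel spanning at least a factor of 10) of each enzyme in the 3 NCD-fed and 3 HFD-fed mice, with the symbol marking the replicate and the line the mean of 3 mice. The diets are separated in 7 panels, while in *Ptgs2* a single HFD-fed mouse, replicate 1 at 1.04, lies among the NCD-fed mice, and in *Alox5* and *Ltc4s* the lowest mouse is NCD replicate 1.

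RefSeq sequences of the region from 250 bases before to 50 bases after the annotated start were at hand for 8 of the 10 members, not for *Ptgis* and *Alox5ap*. They are shown for the synthases that rose and were at hand (*Hpgds*, *Tbxas1*), for the synthase that fell (*Ptges*), and for *Ptgs2*, whose HFD-fed mice differed most among themselves. Capitals mark matches on either strand to 5 motifs. They are GAGGAAG, the core bound by the myeloid factor PU.1, and TTGCGCAA, the palindrome bound by C/EBP factors. The others are the E-box CACGTG, to which basic helix-loop-helix proteins bind, the half-site of the cAMP response element, which reads CGTCA, and the TATA box, searched as TATAAA. The windows are those of the RefSeq start given in the table, and the annotated bodies of *Ptges*, *Ptgs1*, *Tbxas1*, *Hpgds* and *Ptgds* begin further upstream, so that the windows of these 5 genes do not sit at the start of the body. All coordinates are on GRCm38.p6, and the windows are written 5′ to 3′ along the strand of the gene.
*Hpgds*, chr6:65144681-65144980, minus strand: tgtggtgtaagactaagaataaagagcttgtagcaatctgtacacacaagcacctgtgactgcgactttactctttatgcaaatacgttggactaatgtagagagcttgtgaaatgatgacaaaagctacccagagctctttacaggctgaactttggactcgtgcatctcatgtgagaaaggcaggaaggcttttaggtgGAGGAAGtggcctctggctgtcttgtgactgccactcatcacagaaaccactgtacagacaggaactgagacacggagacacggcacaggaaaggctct
*Tbxas1*, chr6:38918736-38919035, plus strand: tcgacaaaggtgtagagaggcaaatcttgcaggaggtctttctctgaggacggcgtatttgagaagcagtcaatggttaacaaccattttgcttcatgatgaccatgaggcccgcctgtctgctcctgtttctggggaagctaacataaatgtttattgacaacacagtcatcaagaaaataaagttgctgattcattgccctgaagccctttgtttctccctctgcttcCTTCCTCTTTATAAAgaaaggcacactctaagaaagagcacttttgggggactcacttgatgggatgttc
*Ptges*, chr2:30903248-30903547, minus strand: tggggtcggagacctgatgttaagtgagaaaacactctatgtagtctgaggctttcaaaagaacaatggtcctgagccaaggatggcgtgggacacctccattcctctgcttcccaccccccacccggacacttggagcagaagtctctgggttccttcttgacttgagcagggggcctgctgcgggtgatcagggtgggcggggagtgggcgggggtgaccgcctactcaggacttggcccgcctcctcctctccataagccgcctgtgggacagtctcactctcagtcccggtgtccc
*Ptgs2*, chr1:150099781-150100080, plus strand: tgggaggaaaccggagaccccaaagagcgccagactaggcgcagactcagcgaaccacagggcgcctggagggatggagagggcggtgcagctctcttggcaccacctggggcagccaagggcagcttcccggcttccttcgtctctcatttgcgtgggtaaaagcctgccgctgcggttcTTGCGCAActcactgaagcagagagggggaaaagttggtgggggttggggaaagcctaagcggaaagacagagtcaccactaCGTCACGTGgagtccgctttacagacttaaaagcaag
The PU.1 core was found in the windows of *Hpgds*, *Tbxas1*, *Ptgs1* and *Ltc4s*, 4 of 8 members, and in 13.6% of the 32851 promoter windows of this length. In *Tbxas1* the core and a pair of overlapping TATAAA matches, 1 on each strand, lie within 20 bases before the start, and TATAAA was found in 13.6% of all windows. The *Ptgs2* window holds TTGCGCAA, found in 0.183% of all windows, and an overlapping pair of the CRE half-site and the E-box, found in 20.8% and 7.15% of all windows. The *Ptges*, *Alox5* and *Ptgds* windows hold none of the 5. These are matches of letters, and binding was not measured.

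The cyclooxygenases were higher on average on HFD without passing the test. *Ptgs1* (NCBI gene 19224, chr2:36216742-36258593), the form made constitutively in many cells, was at 12.6, 17.5 and 15.6 TMM-scaled CPM on NCD and 20.9, 54.9 and 41.7 on HFD. The diets did not overlap, HFD replicate 1 being nearest to the NCD-fed mice. The log2 fold change was 1.36 (SE 0.365, edgeR adjusted p = 0.0735), and without NCD replicate 1 it was 1.26 (edgeR adjusted p = 0.0802).

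*Ptgs2* (NCBI gene 19225, chr1:150100031-150108234), the inducible cyclooxygenase of inflammation, split the HFD-fed mice. It was at 1.04, 0.970 and 1.79 TMM-scaled CPM on NCD and 1.04, 18.2 and 30.7 on HFD, from 34, 58 and 96 and 60, 1520 and 1925 counts. HFD replicates 2 and 3 were far above all NCD-fed mice, whereas HFD replicate 1 was within their range. The log2 fold change of 3.71 had a SE of 1.12 and a 95% interval from 0.99 to 6.44 (edgeR adjusted p = 0.0921). Without HFD replicate 1 it was 4.28 with a SE of 0.430 (edgeR adjusted p = 0.0548), and without HFD replicate 3 it was 2.93 with a SE of 1.13 (edgeR adjusted p = 0.259).

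Neutrophil genes were highest in the same HFD-fed mice as *Ptgs2*. The 6 neutrophil markers, all in the table, summed to 4.20, 9.55 and 6.44 TMM-scaled CPM on NCD and 20.3, 154 and 419 on HFD. HFD replicates 2 and 3 were again the high mice. *Ly6g*, which defines mouse neutrophils, had 0, 0 and 0 counts on NCD and 0, 7 and 11 on HFD, and *Retnlg* had 0, 0 and 0 and 8, 147 and 376. Of the 4 neutrophil markers tested, *Csf3r*, the receptor for granulocyte colony-stimulating factor, passed (log2 fold change 3.71, edgeR adjusted p = 0.0495). Over all genes tested 7.47% passed. Without NCD replicate 1 *Csf3r* did not pass (3.53, edgeR adjusted p = 0.0533). In that fit *S100a8* did (5.36, edgeR adjusted p = 0.0492), as 1 of 5 tested, where 20.9% of all genes tested passed. The platelet list followed the same order on HFD, at 4.18, 10.7 and 24.8, of which *Ppbp* made up 0.815, 5.11 and 17.8, with *Gp6* and *Gp9*, which define platelets, at no more than 8 counts in any library. The part of either cell type in the *Ptgs2* values was not tested.

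The counts of *Ptgs1* exceeded those of *Ptgs2* in every mouse. Their ratio, which does not depend on the scaling between libraries, was 12.2, 18.0 and 8.76 on NCD and 20.1, 3.01 and 1.36 on HFD. The ratios of the diets overlapped, HFD replicate 1 having the highest of all 6 (difference of the log2 ratios -1.52, exact two-sided permutation p = 0.4).

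*Ptges* (NCBI gene 64292, chr2:30889471-30931020), the inducible microsomal prostaglandin E synthase, fell on HFD. Its level was 78.3, 192 and 178 TMM-scaled CPM on NCD and 43.5, 44.3 and 48.7 on HFD. The HFD-fed mice lay close together, at 45.5 ± 2.77 (SD, n = 3 mice), and all of them below the lowest NCD-fed mouse, which was the library rich in seminal vesicle RNA. The log2 difference, HFD minus NCD, was -1.72 (SE 0.350, 95% interval -2.57 to -0.87, edgeR adjusted p = 0.0428). Without that library it was -2.01 (SE 0.117, edgeR adjusted p = 0.00544). The call was lost with total counts as the only scaling (-1.35, edgeR adjusted p = 0.199) and with no filter on low counts (edgeR adjusted p = 0.0538). Without NCD replicate 1, 2 of the 7 adipocyte genes also passed as lower, where 10.1% of all genes tested did. With all mice 0 of the 7 passed, where 1.9% of all genes tested passed as lower. The 2 were *Plin1* (-1.17, edgeR adjusted p = 0.0234) and *Lipe* (-0.95, edgeR adjusted p = 0.0448), and the list median was -0.56. Of the 5 that did not pass, *Adipoq* and *Cidec* were at -0.56 and -0.74. *Fabp4* and *Pnpla2* were at -0.04 and 0.01, and *Lep* was higher on HFD, at 0.78. The part of adipocyte content in the *Ptges* values was not tested.

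The other prostaglandin E synthases did not follow a common course. *Ptges2*, the membrane-associated form, was at 17.8, 36.4 and 31.4 TMM-scaled CPM on NCD and 13.6, 15.3 and 12.5 on HFD, with diets that did not overlap (log2 fold change -1.05, edgeR adjusted p = 0.0768), and it passed without NCD replicate 1 (-1.28, edgeR adjusted p = 0.00686). *Ptges3*, the cytosolic form that is also the HSP90 co-chaperone p23, was at 122, 115 and 138 on NCD and 104, 124 and 145 on HFD (log2 fold change -0.01, 95% interval -0.44 to 0.43).

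*Tbxas1* (NCBI gene 21391, chr6:38864159-39084590), thromboxane synthase, had the smallest adjusted p of the 10 members with all 6 mice. Without NCD replicate 1 that place went to *Ptges*. *Tbxas1* was at 4.02, 8.31 and 7.93 TMM-scaled CPM on NCD and 64.9, 36.8 and 46.3 on HFD. The lowest HFD-fed mouse was more than 4 times above the highest NCD-fed mouse. On the log2 scale it rose by 2.87 (SE 0.366, edgeR adjusted p = 0.0219), and without NCD replicate 1 it was 2.62 (SE 0.271, edgeR adjusted p = 0.00667). The gene body overlaps those of *Hipk2* and the noncoding gene 1700025N23Rik, which are also in the table, and the handling of reads in shared stretches is unknown.

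*Ptgis* (NCBI gene 19223, chr2:167203194-167252150), prostacyclin synthase of endothelial, smooth muscle and stromal cells, was at 19.7, 26.6 and 19.3 TMM-scaled CPM on NCD and 37.6, 125 and 69.4 on HFD. HFD replicate 2 was the highest and HFD replicate 1 the lowest of the HFD-fed mice, still above all NCD-fed mice. The log2 fold change of 1.82 (SE 0.444) did not pass, with an adjusted p of 0.0604 from edgeR and of 0.0641 without NCD replicate 1. The mesothelial list (6 genes, such as *Msln* and *Upk3b*) was also highest in HFD replicate 2, at 364, 179 and 112 on NCD and 252, 595 and 198 on HFD, and so was the stromal list, at 929, 1291 and 1038 on NCD and 1512, 1695 and 1163 on HFD. The endothelial list was highest in HFD replicate 1, at 214, 638 and 724 on NCD and 849.6, 714 and 714 on HFD, and the smooth muscle list was at 6542, 768 and 229 on NCD and 303, 231 and 216 on HFD. The part of these cells in the *Ptgis* values was not tested.

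Prostacyclin and thromboxane have opposing actions on platelets and vessels. The count ratio of *Ptgis* to *Tbxas1* was 4.89, 3.20 and 2.44 on NCD and 0.580, 3.40 and 1.50 on HFD. HFD replicate 2 lay within the range of the NCD-fed mice and the other two HFD-fed mice below it, and the difference of the log2 ratios, -1.23, was smaller than the SD of 1.28 among HFD-fed mice (exact two-sided permutation p = 0.3).

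Of the prostaglandin D synthases, *Hpgds* rose and *Ptgds*, lower on HFD, passed without NCD replicate 1 but not with it. *Hpgds* (NCBI gene 54486, chr6:65117293-65144981), the glutathione-dependent synthase of macrophages, mast cells and T cells, was at 5.51, 7.98 and 5.40 TMM-scaled CPM on NCD and 84.5, 24.4 and 36.4 on HFD. It rose by 2.94 on the log2 scale (SE 0.510, 95% interval 1.70 to 4.18, edgeR adjusted p = 0.0300), and by 2.87 without NCD replicate 1 (edgeR adjusted p = 0.0271). HFD replicate 1 was more than 2 times above the other HFD-fed mice, and without it the log2 fold change was 2.28 (SE 0.303, edgeR adjusted p = 0.0561).

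*Ptgds* (NCBI gene 19215, chr2:25466709-25470110), the lipocalin-type synthase known from brain and from the male genital tract, was scarce. It was at 9.07, 2.01 and 0.707 TMM-scaled CPM on NCD and 0.243, 0.144 and 0.0638 on HFD, from 298, 120 and 38 and 14, 12 and 4 counts. All NCD-fed mice were above all HFD-fed mice, and the order of the NCD-fed mice was that of their share of seminal vesicle RNA. The log2 difference was -4.69 (SE 1.13, edgeR adjusted p = 0.0586) and moved to -3.16 without NCD replicate 1, where it passed (SE 0.733, edgeR adjusted p = 0.0353). The epididymis list, of which 7 of 10 genes were in the table, summed to 0.761, 2.58 and 0.372 on NCD and 0.225, 0.192 and 0.287 on HFD, with *Lcn8* at 0 in 5 of the 6 libraries. The part of seminal vesicle RNA in the *Ptgds* values was not tested.

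The count ratio of *Hpgds* to *Ptgds* was 0.607, 3.98 and 7.63 on NCD and 348, 169.5 and 571 on HFD. The diets did not overlap, and *Ptgds* had more counts than *Hpgds* in NCD replicate 1 alone. The log2 ratio differed by 6.93 between the diets (exact two-sided permutation p = 0.1, the smallest possible), and by 5.87 without NCD replicate 1.

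Among the 5 members that are terminal synthases of prostaglandin H2, *Ptges* made up most of the summed RNA on NCD and a minor part on HFD. Levels of different genes were compared per length, as TMM-scaled FPKM, that is TMM-scaled CPM per kilobase of exon. Synthases outside the members are not in this sum. Of these, *Ptges3* (mean FPKM 62.5 on NCD and 62.1 on HFD) and *Prxl2b* (65.2 and 35.2) had means above that of *Ptges* on NCD (41.0). *Ptges2* was lower (5.73 and 2.78). Of the summed FPKM of the 5, *Ptges* took 50.4, 73.8 and 78.6% on NCD and 16.2, 14.2 and 19.3% on HFD, and was the first of the 5 in every NCD-fed mouse and in no HFD-fed mouse. *Tbxas1* took 3.04, 3.75 and 4.12% on NCD and 28.3, 13.8 and 21.6% on HFD. *Hpgds* took 3.72, 3.21 and 2.50% and 32.9, 8.17 and 15.2%. On HFD the first place differed between mice, since *Hpgds* led in replicate 1 and *Ptgis* in replicates 2 and 3, *Ptgis* taking 20.2, 16.2 and 13.6% on NCD and 22.3, 63.7 and 43.9% on HFD. *Ptgds* took 22.7, 2.99 and 1.21% on NCD and 0.350, 0.179 and 0.0983% on HFD. The mean share of *Ptges* was 67.6% ± 15.1 (SD, n = 3) for NCD-fed mice, against 16.5% ± 2.59 (SD, n = 3) for HFD-fed mice, with no overlap (exact two-sided permutation p = 0.1).

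**Figure D3:**
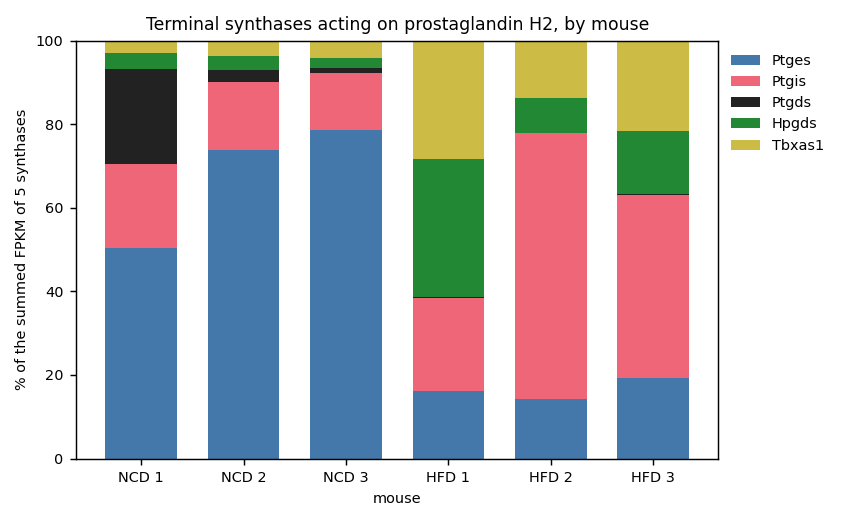
Share of each terminal synthase in the summed TMM-scaled FPKM of *Ptges*, *Ptgis*, *Ptgds*, *Hpgds* and *Tbxas1* (vertical axis, %), 1 bar per mouse. The *Ptges* part covers 50.4% to 78.6% of the NCD bars and 14.2% to 19.3% of the HFD bars, and *Ptgds* is visible mainly in NCD replicate 1.

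In the leukotriene branch, *Alox5ap* rose while no difference was detected for *Alox5* or *Ltc4s*. *Alox5ap* (NCBI gene 11690, chr5:149265004-149288153) was at 8.98, 30.2 and 27.6 TMM-scaled CPM on NCD and 92.4, 104 and 149.9 on HFD, the lowest HFD-fed mouse being above the highest NCD-fed one. It rose on the log2 scale by 2.37 (SE 0.488, edgeR adjusted p = 0.0434), and 2.01 without NCD replicate 1 (SE 0.250, edgeR adjusted p = 0.00849). The adjusted p rose to 0.0549 with total counts as the only scaling and to 0.0522 with no filter on low counts.

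*Alox5* (NCBI gene 11689, chr6:116410071-116461178), the lipoxygenase itself, was at 2.13, 7.59 and 7.33 TMM-scaled CPM on NCD and 5.51, 9.54 and 7.19 on HFD. NCD replicate 1 was the lowest, and the other 5 mice of both diets were interleaved. The log2 difference was 0.38 with a 95% interval from -0.86 to 1.62 (edgeR adjusted p = 0.645), and without NCD replicate 1 it was 0.0066 with an interval from -0.65 to 0.66. The count ratio of *Alox5ap* to *Alox5* was 4.21, 3.98 and 3.77 on NCD and 16.8, 10.9 and 20.8 on HFD. The NCD-fed mice, NCD replicate 1 included, agreed closely, and all HFD-fed mice were above them (difference of the log2 ratios 1.97, exact two-sided permutation p = 0.1).

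*Ltc4s* (NCBI gene 17001, chr11:50236461-50238532) was at 12.5, 64.1 and 60.3 TMM-scaled CPM on NCD and 60.4, 77.7 and 70.7 on HFD. NCD replicate 1 was the only low mouse, and the other 5 lay between 60.3 and 77.7. The log2 difference was 0.61 (95% interval -0.78 to 1.99, edgeR adjusted p = 0.503), and 0.18 without that library, with an interval from -0.18 to 0.53.

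Per length, *Ltc4s* and *Alox5ap* were the most abundant of the 10 on HFD and *Ltc4s* and *Ptges* on NCD. *Ltc4s* was at 19.2, 98.3 and 92.5 TMM-scaled FPKM on NCD and 92.6, 119 and 108 on HFD. *Ptges* came next on NCD, at 21.5, 52.8 and 48.8, above *Ltc4s* in replicate 1 and below it in replicates 2 and 3. *Alox5ap* came next on HFD, at 68.7, 77.0 and 111, above *Ltc4s* in replicate 3 alone. In the order of the mean levels on NCD (*Ltc4s*, *Ptges*, *Alox5ap*, *Ptgis*, *Ptgs1*, *Ptgds*, *Tbxas1*, *Alox5*, *Hpgds*, *Ptgs2*), the ranges of neighbours did not overlap between *Ptgis* and *Ptgs1* and between *Hpgds* and *Ptgs2*, and *Ptges* was above *Alox5ap* within each mouse although their ranges overlapped. On HFD the order was *Ltc4s*, *Alox5ap*, *Ptgis*, *Tbxas1*, *Hpgds*, *Ptgs1*, *Ptges*, *Ptgs2*, *Alox5* and *Ptgds*, and the ranges of neighbours did not overlap between *Alox5ap* and *Ptgis*, *Ptges* and *Ptgs2*, and *Alox5* and *Ptgds*. The means ran from 0.284 to 70.0 FPKM on NCD and from 0.160 to 107 on HFD.

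Beyond the 10 enzymes, 44 other genes of eicosanoid supply, synthesis, removal and reception were listed, of which 42 were in the table and 35 had enough counts. By edgeR 3 rose (*Dpep2*, *Ptger2* and *Ptger4*) and 3 fell (*Ptger3*, *Akr1b7* and *Ggt1*), where 7.47% of all genes tested passed. The median log2 fold change over the 35 was -0.01. Without NCD replicate 1 the numbers were 7 and 7, where 20.9% of all genes tested passed.

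Among 10 receptors with enough counts, those of prostaglandin E2 moved in opposite directions. *Ptger3*, which couples to inhibitory G proteins, fell from 34.6, 96.0 and 109.7 TMM-scaled CPM on NCD to 12.1, 12.2 and 6.49 on HFD (log2 fold change -2.97, SE 0.506, edgeR adjusted p = 0.0289). *Ptger4*, which couples to stimulatory G proteins, rose from 5.94, 9.03 and 9.16 on NCD to 23.2, 30.4 and 34.4 on HFD (log2 fold change 1.87, SE 0.254, edgeR adjusted p = 0.0220). *Ptger2*, which also couples to stimulatory G proteins, rose from 0.792, 1.96 and 2.46 on NCD to 10.9, 7.80 and 9.95 on HFD (log2 fold change 2.45, SE 0.453, edgeR adjusted p = 0.0348). In all 3 the diets did not overlap, and all 3 passed without NCD replicate 1. *Ptger1* had at most 34 counts in a library, and its log2 fold change of 1.10 did not pass (edgeR adjusted p = 0.252).

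The prostacyclin receptor *Ptgir* was at 2.65, 4.98 and 7.35 TMM-scaled CPM on NCD and 15.2, 12.0 and 11.3 on HFD and passed without NCD replicate 1 but not with it (log2 fold change 1.36, edgeR adjusted p = 0.0852, against 1.07 and 0.0345 without it). The same held for *Cysltr1*, a receptor for cysteinyl leukotrienes, at 2.80, 6.76 and 5.58 on NCD and 12.1, 15.5 and 22.5 on HFD (log2 fold change 1.72, edgeR adjusted p = 0.0561, against 1.45 and 0.0275). *Ltb4r1*, the high-affinity receptor for leukotriene B4 on neutrophils and other leukocytes, was at 0.944, 1.37 and 1.28 on NCD and 2.67, 7.52 and 12.7 on HFD, without overlap but short of the threshold (edgeR adjusted p = 0.0508). HFD replicates 2 and 3 were its highest mice, as with *Ptgs2*. The thromboxane receptor *Tbxa2r* was at 0.731, 1.25 and 1.12 on NCD and 0.815, 1.08 and 0.654 on HFD, with overlapping diets (log2 fold change -0.29, 95% interval -1.23 to 0.66). The receptors of prostaglandin D2, *Ptgdr* and *Ptgdr2*, had at most 8 and 13 counts in a library and were not tested.

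**Figure D4:**
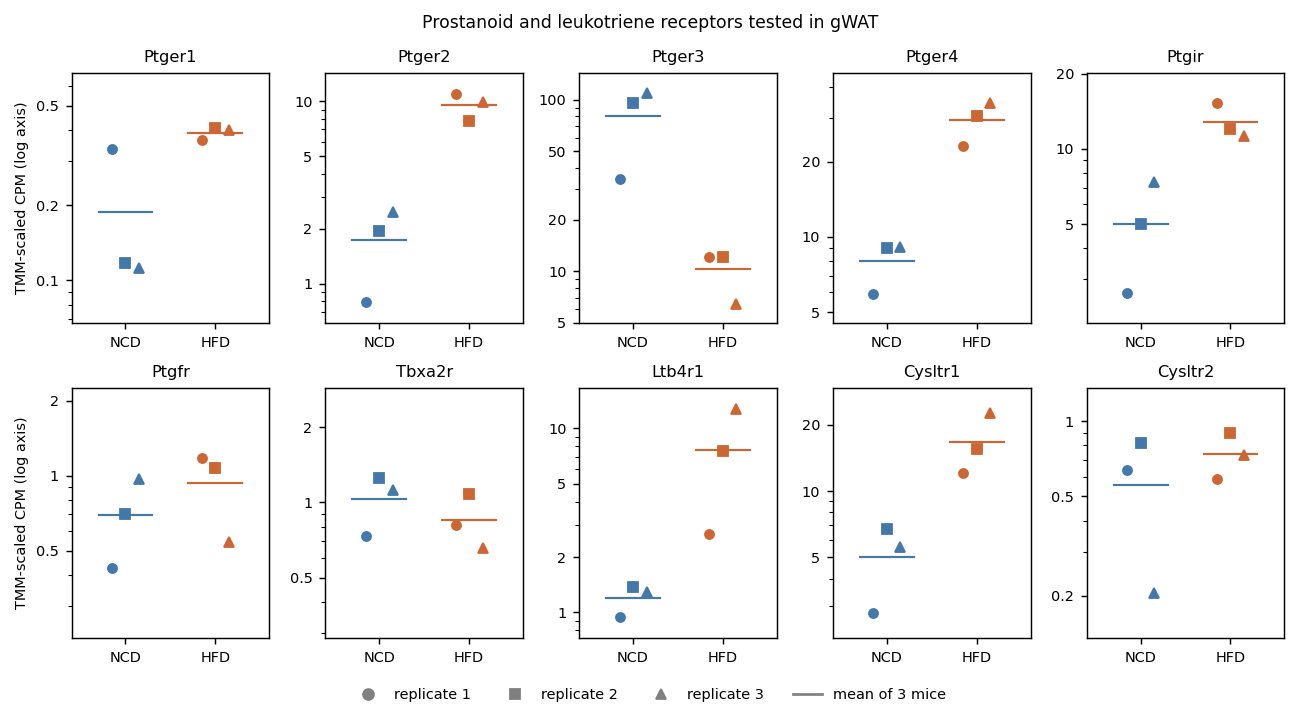
TMM-scaled CPM (log axis, each panel spanning at least a factor of 10) of the 10 tested receptors in each mouse, with the symbol marking the replicate and the line the mean of 3 mice. *Ptger3* is lower in every HFD-fed mouse, *Ptger1*, *Ptger2*, *Ptger4*, *Ptgir*, *Ltb4r1* and *Cysltr1* are higher in every one, and *Ptgfr*, *Tbxa2r* and *Cysltr2* overlap.

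Of the enzymes around the 10 members, *Dpep2*, a dipeptidase that converts leukotriene D4 to E4, rose from 2.41, 8.01 and 6.23 TMM-scaled CPM on NCD to 76.7, 35.5 and 49.3 on HFD (log2 fold change 3.27, edgeR adjusted p = 0.0260). Its relative *Dpep1* was at 22.3, 77.8 and 68.3 on NCD and 81.2, 47.4 and 24.6 on HFD, with overlapping diets. The log2 fold change of *Dpep1* was -0.14 (edgeR adjusted p = 0.894), and -0.51 without NCD replicate 1. The preceding step, from leukotriene C4 to D4, is made by gamma-glutamyl transferases. *Ggt5* was at 7.22, 28.8 and 29.5 on NCD and 27.7, 36.2 and 36.2 on HFD (log2 fold change 0.61, edgeR adjusted p = 0.454). *Ggt1*, which serves the same step and is abundant in secretory epithelia, fell from 414, 37.4 and 7.35 on NCD to 0.0693, 0 and 0.351 on HFD (edgeR adjusted p = 0.0495). The order of the NCD-fed mice in *Ggt1* was that of their seminal vesicle share, and so it was in *Alox12*, the platelet-type lipoxygenase, at 54.0, 8.06 and 2.77 on NCD and 1.73, 1.58 and 1.15 on HFD. The log2 fold change of *Alox12* was -3.86 (edgeR adjusted p = 0.0860) and moved to -1.85 without NCD replicate 1, where it passed (edgeR adjusted p = 0.0481), and *Ggt1* moved from -10.13 to -7.35 (edgeR adjusted p = 0.0168). The part of seminal vesicle RNA in these values was not tested.

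*Pla2g4a*, the cytosolic phospholipase A2 that releases arachidonic acid, was at 19.9, 7.24 and 4.0 TMM-scaled CPM on NCD and 14.4, 23.9 and 23.4 on HFD. NCD replicate 1 lay among the HFD-fed mice, and the log2 fold change went from 0.99 (edgeR adjusted p = 0.309) to 1.89 without that library (edgeR adjusted p = 0.0216). *Pla2g2d*, a secreted phospholipase of immune cells, was at 3.78, 8.93 and 6.89 on NCD and 2.32, 1.41 and 2.02 on HFD (log2 fold change -1.77, edgeR adjusted p = 0.0528) and passed without that library (-2.03, edgeR adjusted p = 0.0110). Aldose reductase-like *Akr1b7*, which has prostaglandin F synthase activity, fell from 2.80, 3.28 and 0.465 on NCD to 0.121, 0.0599 and 0.143 on HFD (edgeR adjusted p = 0.0415). It was higher in NCD replicates 1 and 2, which had the larger seminal vesicle shares, than in NCD replicate 3. The part of admixed RNA in the *Akr1b7* values was not tested. Its relative *Akr1b8* was at 6.73, 20.2 and 15.9 on NCD and 49.2, 39.1 and 39.5 on HFD and passed without NCD replicate 1 but not with it (1.25, edgeR adjusted p = 0.0101). *Prxl2b*, a prostamide and prostaglandin F synthase, was at 19.1, 82.9 and 70.8 on NCD and 31.1, 32.6 and 29.6 on HFD and was lower past the threshold without NCD replicate 1 but not with it (-1.29, edgeR adjusted p = 0.00571). *Lta4h*, which makes leukotriene B4 from leukotriene A4, was at 51.3, 43.3 and 49.0 on NCD and 74.4, 60.9 and 57.6 on HFD, without overlap between the diets (log2 fold change 0.43, edgeR adjusted p = 0.137).

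None of the 6 genes of prostaglandin inactivation and transport passed in edgeR, with or without NCD replicate 1, or in DESeq2. Over all genes the shares passing were 7.47%, 20.9% and 23%. At an unadjusted p under 0.05 edgeR gave 0 of the 6 with all mice and 1 without NCD replicate 1. Over all genes this held for 4524 of 15241 and 5825 of 15510. *Hpgd*, the dehydrogenase that begins the breakdown of prostaglandins, was at 218, 53.7 and 63.0 TMM-scaled CPM on NCD and 64.5, 23.1 and 21.4 on HFD. *Slco2a1*, the prostaglandin uptake transporter, was at 62.8, 15.2 and 8.62 on NCD and 15.2, 17.7 and 25.9 on HFD. In both, NCD replicate 1 was by far the highest mouse, and without it the log2 fold changes were -0.67 and 0.73, against -1.62 and -0.56 with it.

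Markers of leukocytes were set beside the enzymes. The 7 macrophage genes summed to 348, 845 and 742 TMM-scaled CPM on NCD and 3281, 1817 and 2221 on HFD, without overlap and with HFD replicate 1 the highest, as for *Hpgds* and *Tbxas1*. *Alox5ap*, the other member that rose, was lowest in HFD replicate 1 among the HFD-fed mice, and within the list *Mrc1* was highest in HFD replicate 3, at 299.5, 303 and 487 on HFD. Of the 7, *Adgre1* and *Cd68* passed in edgeR (log2 fold changes 2.86 and 3.17), and *Cd163* was at -0.07. Without NCD replicate 1, 6 of the 7 passed, *Csf1r*, *Itgax*, *Mrc1* and *Lyz2* being added. Over all genes tested, the share passing also rose, from 7.47% with all mice to 20.9% without NCD replicate 1. The 7 mast cell genes summed to 25.1, 33.4 and 28.2 on NCD and 32.5, 23.9 and 21.2 on HFD, with overlapping diets. *Kit* was the largest part of this sum and the only gene of the list with a higher mean on HFD (12.7 on NCD, 18.1 on HFD). None of the 7 passed in edgeR or DESeq2, where 7.47% and 23% of all genes passed. An unadjusted p under 0.05 in edgeR was reached by 3, all lower on HFD (*Cma1* -1.26, *Mcpt4* -1.14 and *Fcer1a* -1.64 on the log2 scale), and by 0 without NCD replicate 1. Over all genes it was reached by 4524 of 15241, and by 5825 of 15510 without NCD replicate 1. Mast cells are a known source of prostaglandin D2 and leukotriene C4. The part of a change in cell makeup in the enzyme values was not tested.

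**Figure D5:**
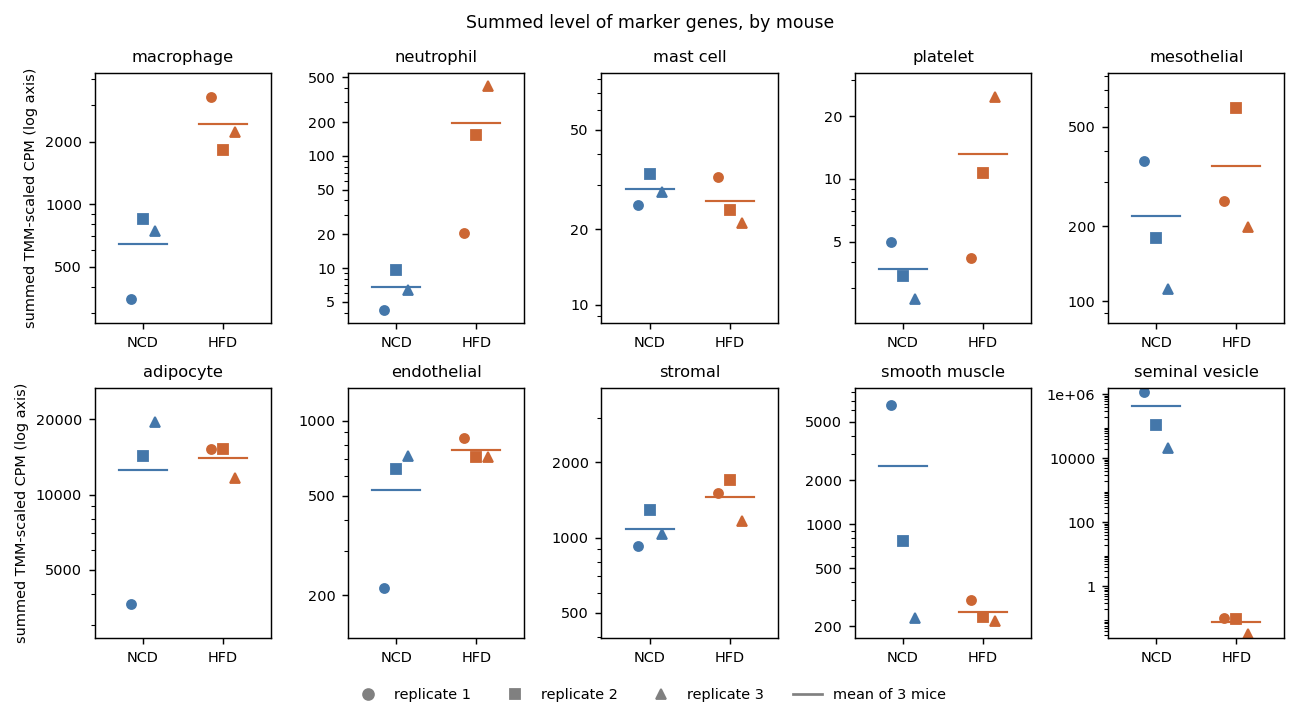
Summed TMM-scaled CPM (log axis, each panel spanning at least a factor of 10) of the marker genes of 10 lists in each mouse, with the symbol marking the replicate and the line the mean of 3 mice. Macrophage genes are higher in every HFD-fed mouse, neutrophil genes are highest in HFD replicates 2 and 3, and the seminal vesicle panel shows NCD replicate 1 above all others, its scaled level being raised by a TMM factor of 0.496.

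For the 3 members of highest mean FPKM over the 6 mice, the genes of most similar pattern were found among all 15241 tested genes, by the root mean square difference of the log2 levels over the 6 mice after each gene's mean was subtracted. For *Ltc4s* these were *Pcdh19*, *Ggt5* and *Fam222a*, with differences of 0.131, 0.131 and 0.139. *Ggt5* encodes a transferase that acts on leukotriene C4. For *Alox5ap* they were *Nek6*, *Card9* and *Csf2rb2*, with differences of 0.137, 0.141 and 0.161, of which *Card9* encodes an adaptor of myeloid cells and *Csf2rb2* a receptor subunit for interleukin-3. For *Ptges* they were the microRNA locus *Mir6392*, *Cyp51* and *Dok7*, with differences of 0.144, 0.147 and 0.176. *Cyp51*, an enzyme of cholesterol synthesis, was at 47.3, 133 and 104 TMM-scaled CPM on NCD and 29.6, 27.4 and 24.5 on HFD. All 6 mice enter this measure, so that the low level shared in NCD replicate 1 counts in it.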

How the data were processed

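RNA from gWAT of 3 NCD-fed and 3 HFD-fed mice was sequenced by the authors, who deposited raw counts per gene (NCBI gene identifiers) in 1 table. The submitters' processing notes name bcl2fastq 2.20.0, Trimmomatic, HISAT2 2.1.0, StringTie 1.3.4d, DESeq2 and the mm10/GRCm38 build. The sources used here do not give the strand setting of the counting. Every count column was assigned to a mouse by its label (0 left unassigned), and the HFD-fed mouse called replicate 3 is numbered 4 in the labels. The study describes its data as coming from biological replicates. Members and lists were chosen with earlier results of these data known.

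Low genes were removed with filterByExpr of edgeR 4.0.16, at a minimum count of 10 and a total of 15, and TMM-scaled libraries were compared between diets by the quasi-likelihood test in R 4.3.3, with all 6 mice and no covariate. Adjusted p-values are Benjamini-Hochberg values over 15241 genes. TMM-scaled FPKM used exon lengths of the GRCm38 annotation. One count equals 0.0151 to 0.0202 CPM before TMM scaling. Ratios and shares within a mouse were compared by exact permutation. The code was tested on simulated counts. Alternatives were median-of-ratios factors, total counts, TMM without seminal vesicle genes, no filter, DESeq2 1.42.0, a replicate block and each mouse left out. The share of *Ptges*, and the count of members without overlap, were given alternatives after the data were seen. The text names all members, receptors, and other pathway genes past the threshold with or without NCD replicate 1. It also names the 3 genes most like each of 3 members. *Ptges3*, *Lta4h*, *Hpgd*, *Slco2a1* and *Dpep1* were added after their values were seen. Marker genes were named with their values in view. A planned comparison of protein sequences was not run, and protein sequences are not used here.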

Additional observations from a re-analysis of the deposited data

How the results depend on the processing

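All 10 members kept the sign of their log2 fold change under all 12 alternatives, while the number passing moved. It was 4 in edgeR, 2 with no filter on low counts, 8 in DESeq2 and from 0 to 5 with 1 mouse left out (5 without NCD replicate 1, 0 without any other mouse). Of the other pathway genes 6 passed, 14 did in DESeq2, and from 0 to 14 with 1 mouse left out. Over all genes 1139 passed, 3853 in DESeq2, 803 with no filter, and from 2 to 3234 with 1 mouse left out. The causes were not tested. The share of calls higher on HFD was 74.6%, and 54.5% in DESeq2, 51.5% without NCD replicate 1 and 80.2% with no filter. Total counts as the only scaling moved the median log2 fold change of all genes from -0.08 to 0.45. With them *Ptgds* passed (adjusted p = 0.0424 from edgeR) and *Ptges* and *Alox5ap* did not.

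No pairing of mice by replicate number was seen, since same-numbered mice did not deviate together (correlations -0.056, -0.046 and 0.0097). Mice of different numbers had correlations from -0.054 to 0.076. The unequal seminal vesicle RNA of the NCD libraries also enters these values, so that they cannot decide on a pairing. With the number as a replicate block 12 of 15241 genes passed in all (3571 at an unadjusted p under 0.05). Among them were 0 of the 10 members (7 at an unadjusted p under 0.05) and 0 of the other pathway genes (15 at an unadjusted p under 0.05).

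With all 6 mice the 95% intervals of *Alox5* and *Ltc4s* reach beyond 1 on the log2 scale, and without NCD replicate 1 they stay within 1. *Ptgds* rests on at most 14 counts in an HFD library.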
